A study of Mus musculus with 2 samples.

Results

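The genes of leukotriene and prostaglandin synthesis were examined in sc-RNASeq data of the mouse ileal epithelium. The set holds 9 genes, *Alox5*, *Alox5ap*, *Ltc4s*, *Lta4h*, *Ptgs1*, *Ptgs2*, *Hpgds*, *Ptges* and *Hpgd*, chosen by symbol, and each matched 1 of the 27998 rows of the count matrix. The data compare WT mice with mice that lack TNFAIP8 (TIPE0), a lipid transport protein of the TIPE family. The labels give the genotype as TNFAIP8-/-, written here as *Tipe0*-/-. Both groups were untreated C57BL/6 mice of 8 weeks, and each library was made from the ileal epithelial cells of 3 pooled mice. The labels call the digested material enteroids, while the study's methods describe epithelium taken from the ileum, and which of these the levels describe cannot be told from the sources used here. Each genotype has 1 library, animals cannot be separated, and a difference of genotype cannot be told apart from a difference between the preparations.

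Eicosanoids are short-lived lipid signals made from arachidonic acid that phospholipases free from membranes. In the leukotriene branch ALOX5, helped by its membrane partner ALOX5AP (FLAP), makes leukotriene A4, which LTC4S converts to the cysteinyl leukotriene C4 and LTA4H to leukotriene B4. In the prostaglandin branch the cyclooxygenases PTGS1 and PTGS2 make prostaglandin H2, HPGDS and PTGES turn it into prostaglandins D2 and E2, and HPGD inactivates prostaglandins. In the gut, tuft cells, rare chemosensory cells of the epithelium, are known as a source of cysteinyl leukotrienes and prostaglandin D2.

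The WT library held 3402 cells and the *Tipe0*-/- library 2006, with 38127808 and 23897126 unique molecular identifiers (UMIs, each counting 1 captured mRNA molecule) and medians of 7760 and 7307.5 UMIs a cell. The libraries had 9 cell barcodes in common. *Tnfaip8*, the targeted gene, had 372 UMIs in WT and 57 in *Tipe0*-/- cells, or 9.76 and 2.39 UMIs per 1000000 of the library (CPM). Whether the counted 3′ end of this gene lies in its deleted part is not given in the sources used here. Clusters were made without the eicosanoid genes and were named from marker genes, and each name therefore carries "-like". Of 14 clusters, 12 fell into 7 classes and 2 had no name, cluster 1 (led by *Ccne2* and *Cdc6*, genes of DNA replication) and cluster 9 (led by *Lrg1* and *Akr1c19*). The lymphocyte-like cluster was led by *Klhl6* and *Vpreb3*, a gene of B cells. The tuft-like cluster had 16 of 21 tuft markers, among them *Dclk1*, *Trpm5* and *Pou2f3*, and held 160 WT and 50 *Tipe0*-/- cells. No test between the genotypes is possible with 1 library each. The 95% intervals given in parentheses come from the Poisson (CPM), binomial (ratios) and Clopper-Pearson (shares) distributions and cover counting error only.

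On GRCm38, the build named mm10 in the labels, *Alox5* lies on chromosome 6 from 116410077 to 116461178 (minus strand), *Alox5ap* on chromosome 5 from 149264767 to 149288153 (plus), *Ltc4s* on chromosome 11 from 50236461 to 50238616 (minus) and *Lta4h* on chromosome 10 from 93453411 to 93484875 (plus). *Ptgs1* lies on chromosome 2 from 36230426 to 36252272 (plus), *Ptgs2* on chromosome 1 from 150100031 to 150108227 (plus), *Hpgds* on chromosome 6 from 65117293 to 65144908 (minus), *Ptges* on chromosome 2 from 30889471 to 30929863 (minus) and *Hpgd* on chromosome 8 from 56294585 to 56321043 (plus). All 9 are annotated as protein coding in GENCODE M21. The counts are of whole genes. Promoter sequences of 300 bases, from 250 before to 50 after the RefSeq start of the gene, were taken from RefSeq (GRCm38.p6), where 8 of the 9 genes matched. This start is the GENCODE start for *Alox5* and *Ptgs1*, lies 33 bases before it for *Hpgd*, and lies 84 bases after it for *Ltc4s* and 178 after it for *Hpgds*. The promoters of 4 of the genes that were high in tuft-like cells are shown because these genes were found together, with that of *Hpgd*, which was low there. Each is written 5′ to 3′ on the strand of the gene, and capitals mark the motifs searched on both strands: the octamer ATGCAAAT, the letters that POU factors such as POU2F3 are known to read, the TATA box TATAAA, the GC box GGGCGG and the E-box CACGTG.
Alox5 (chr6:116461129-116461428, minus): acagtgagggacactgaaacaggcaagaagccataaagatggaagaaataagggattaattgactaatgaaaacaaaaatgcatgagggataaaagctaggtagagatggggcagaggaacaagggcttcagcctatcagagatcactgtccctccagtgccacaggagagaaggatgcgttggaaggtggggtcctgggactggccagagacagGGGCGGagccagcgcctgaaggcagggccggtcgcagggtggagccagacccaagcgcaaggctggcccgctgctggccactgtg
Ltc4s (chr11:50238483-50238782, minus): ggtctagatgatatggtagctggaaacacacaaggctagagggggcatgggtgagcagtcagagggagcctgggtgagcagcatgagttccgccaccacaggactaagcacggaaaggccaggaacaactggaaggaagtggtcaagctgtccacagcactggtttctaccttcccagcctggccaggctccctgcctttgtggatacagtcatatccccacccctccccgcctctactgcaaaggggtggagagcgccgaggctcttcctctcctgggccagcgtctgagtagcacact
Ptgs1 (chr2:36230176-36230475, plus): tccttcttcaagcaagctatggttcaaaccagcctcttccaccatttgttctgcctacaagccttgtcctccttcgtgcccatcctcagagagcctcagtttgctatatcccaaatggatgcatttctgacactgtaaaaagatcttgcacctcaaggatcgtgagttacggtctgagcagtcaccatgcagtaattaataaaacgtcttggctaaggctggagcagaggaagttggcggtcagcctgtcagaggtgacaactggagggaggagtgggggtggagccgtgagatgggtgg
Hpgds (chr6:65144681-65144980, minus): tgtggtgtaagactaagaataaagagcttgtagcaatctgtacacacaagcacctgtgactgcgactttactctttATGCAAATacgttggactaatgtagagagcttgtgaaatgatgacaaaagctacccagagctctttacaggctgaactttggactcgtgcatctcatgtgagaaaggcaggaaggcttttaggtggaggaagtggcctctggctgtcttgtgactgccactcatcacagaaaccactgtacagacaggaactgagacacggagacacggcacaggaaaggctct
Hpgd (chr8:56294302-56294601, plus): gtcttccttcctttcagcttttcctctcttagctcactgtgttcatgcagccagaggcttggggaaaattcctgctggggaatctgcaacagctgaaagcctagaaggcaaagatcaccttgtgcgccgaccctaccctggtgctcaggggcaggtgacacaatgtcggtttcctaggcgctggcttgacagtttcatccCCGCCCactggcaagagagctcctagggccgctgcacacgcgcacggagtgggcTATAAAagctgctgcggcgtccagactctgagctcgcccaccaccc
The octamer was in the *Hpgds* promoter only among these 5, with its first base at position -174 from the RefSeq start, which is position 5 from the GENCODE start, and 1.735% of 32851 promoters of this length hold it. The *Alox5* promoter had a GC box at position -35, a motif in 35.66% of promoters. The *Hpgd* promoter had a GC box on the opposite strand and a TATA box at position 5 from the RefSeq start and -29 from the GENCODE start, a motif in 13.62% of promoters. No motif of the 4 was in the *Ltc4s* or *Ptgs1* window. The E-box, in 7.15% of promoters, was in none of the 5. A match is a run of letters and does not show that a factor binds there.

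The genes divided by where they were found. The genes that make leukotriene C4 (*Alox5*, *Alox5ap*, *Ltc4s*) and those that make prostaglandin D2 (*Ptgs1*, *Hpgds*) were concentrated in tuft-like cells in both libraries, *Lta4h* was found in every class, *Hpgd* was highest in enterocyte-like cells, and *Ptgs2* and *Ptges* were sparse. Of the 8 genes of the set with at least 50 UMIs, 5 were at least 5-fold higher in tuft-like cells than in all other cells in both libraries, against 0.874% of the 11665 genes with that many UMIs. The clusters were not made from these genes, but a cluster set against the rest is a description and not a test.

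*Alox5*, the lipoxygenase that opens the leukotriene branch, had 161 UMIs in the WT tuft-like cells, or 75.2 CPM of that class (64.0 to 87.7), and 56 in the *Tipe0*-/- tuft-like cells, or 54.0 CPM (40.8 to 70.1). In all other cells together it stood at 0.389 CPM in WT and 0.219 CPM in *Tipe0*-/-. The tuft-like cells, 4.70% of WT and 2.49% of *Tipe0*-/- cells, held 92.0% and 91.8% of its UMIs. No class other than the tuft-like had more than 7 *Alox5* UMIs in a library.

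*Alox5ap*, the partner that presents arachidonic acid to ALOX5, had 389 UMIs and 182 CPM (164 to 201) in WT tuft-like cells, and 109 UMIs and 105 CPM (86.3 to 127) in *Tipe0*-/- tuft-like cells. Its levels in all other cells were 1.72 and 1.22 CPM, and the tuft-like cells held 86.3% and 79.6% of its UMIs. Outside them it was spread thinly, with 16 UMIs or fewer in any class of either library.

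*Ltc4s*, which joins glutathione to leukotriene A4, had 280 UMIs and 131 CPM (116 to 147) in WT tuft-like cells, and 55 UMIs and 53.0 CPM (40.0 to 69.0) in *Tipe0*-/- tuft-like cells. In all other cells it stood at 2.28 and 1.31 CPM. Its tuft-like share of UMIs, 77.3% in WT and 64.7% in *Tipe0*-/-, was below that of *Alox5*. Goblet-like cells held the next most UMIs, 27 and 9.

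*Lta4h*, which makes leukotriene B4 and is also an aminopeptidase, was not concentrated in tuft-like cells. They held 4.79% of its UMIs in WT and 4.56% in *Tipe0*-/-, at 38.8 CPM (30.9 to 48.1) and 55.0 CPM (41.6 to 71.2), beside 45.8 and 52.2 CPM in all other cells. Cycling-like cells were highest in both libraries, at 65.7 CPM (58.6 to 73.5) and 71.7 CPM (62.1 to 82.4). Enterocyte-like cells stood at 60.3 and 68.2 CPM, stem-like at 52.1 and 48.0 CPM, and goblet-like at 42.3 and 52.3 CPM, with stem-like above goblet-like cells in WT and below them in *Tipe0*-/-. The unnamed clusters 1 and 9 stood at 55.9 and 65.2 CPM in WT and at 69.7 and 63.8 CPM in *Tipe0*-/-, and lymphocyte-like cells had 18 and 4 UMIs. Cycling-like and enterocyte-like cells had overlapping intervals in both libraries, as did stem-like and goblet-like cells, and enterocyte-like and stem-like cells in WT. Paneth-like cells were lowest, at 10.6 CPM (8.27 to 13.4) and 15.3 CPM (11.6 to 19.8), and their intervals lay below those of cycling-like, enterocyte-like, goblet-like, stem-like and tuft-like cells in both libraries.

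*Ptgs1*, the cyclooxygenase that most cells carry without a stimulus, followed the pattern of *Alox5*. It had 151 UMIs and 70.5 CPM (59.7 to 82.7) in WT tuft-like cells, and 52 UMIs and 50.1 CPM (37.5 to 65.8) in *Tipe0*-/- tuft-like cells. All other cells stood at 0.584 and 0.219 CPM, and the tuft-like cells held 87.8% and 91.2% of its UMIs. *Ptgs2*, the inducible cyclooxygenase, had 5 UMIs among all WT cells and 1 among all *Tipe0*-/- cells. Of the 5, 4 were in tuft-like cells, which is too few to give a level.

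*Hpgds*, the prostaglandin D synthase of blood and immune cells, had 126 UMIs and 58.8 CPM (49.0 to 70.1) in WT tuft-like cells, and 36 UMIs and 34.7 CPM (24.3 to 48.1) in *Tipe0*-/- tuft-like cells. All other cells stood at 1.195 and 0.875 CPM, and the tuft-like share of its UMIs was 74.6% and 64.3%. *Ptges*, the inducible synthase of prostaglandin E2, had 46 UMIs in WT and 33 in *Tipe0*-/- cells, and only 2 and 3 of them were in tuft-like cells. Paneth-like cells held 14 and 7 of them, at 2.09 CPM (1.14 to 3.50) and 1.87 CPM (0.753 to 3.86), and enterocyte-like cells 10 and 3. Stem-like cells held 11 and 14, at 4.18 CPM (2.09 to 7.48) and 5.33 CPM (2.91 to 8.94). Cycling-like cells held 1 *Ptges* UMI in each library.

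*Hpgd*, the dehydrogenase that starts the breakdown of prostaglandins, was highest in enterocyte-like cells. They held 51.8% of its UMIs in WT and 47.2% in *Tipe0*-/-, while making up 27.5% and 23.2% of the cells. They stood at 56.5 CPM (51.5 to 61.9) in WT and 101 CPM (91.1 to 112) in *Tipe0*-/-. Goblet-like cells followed at 19.4 CPM (16.7 to 22.4) and 26.6 CPM (23.1 to 30.5), Paneth-like at 18.1 CPM (15.0 to 21.6) and 24.9 CPM (20.1 to 30.5), stem-like at 8.74 CPM (5.54 to 13.1) and 20.6 CPM (15.4 to 26.8), and cycling-like at 6.81 CPM (4.66 to 9.61) and 11.6 CPM (7.93 to 16.4). Goblet-like and Paneth-like cells did not differ beyond their intervals in either library. The unnamed cluster 1 stood at 11.7 and 14.9 CPM, cluster 9 had 8 and 10 UMIs, and lymphocyte-like cells had 3 and 0. Tuft-like cells stood at 12.6 CPM (8.31 to 18.3) and 10.6 CPM (5.30 to 19.0), below the enterocyte-like cells of the same library.

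**Figure D1:**
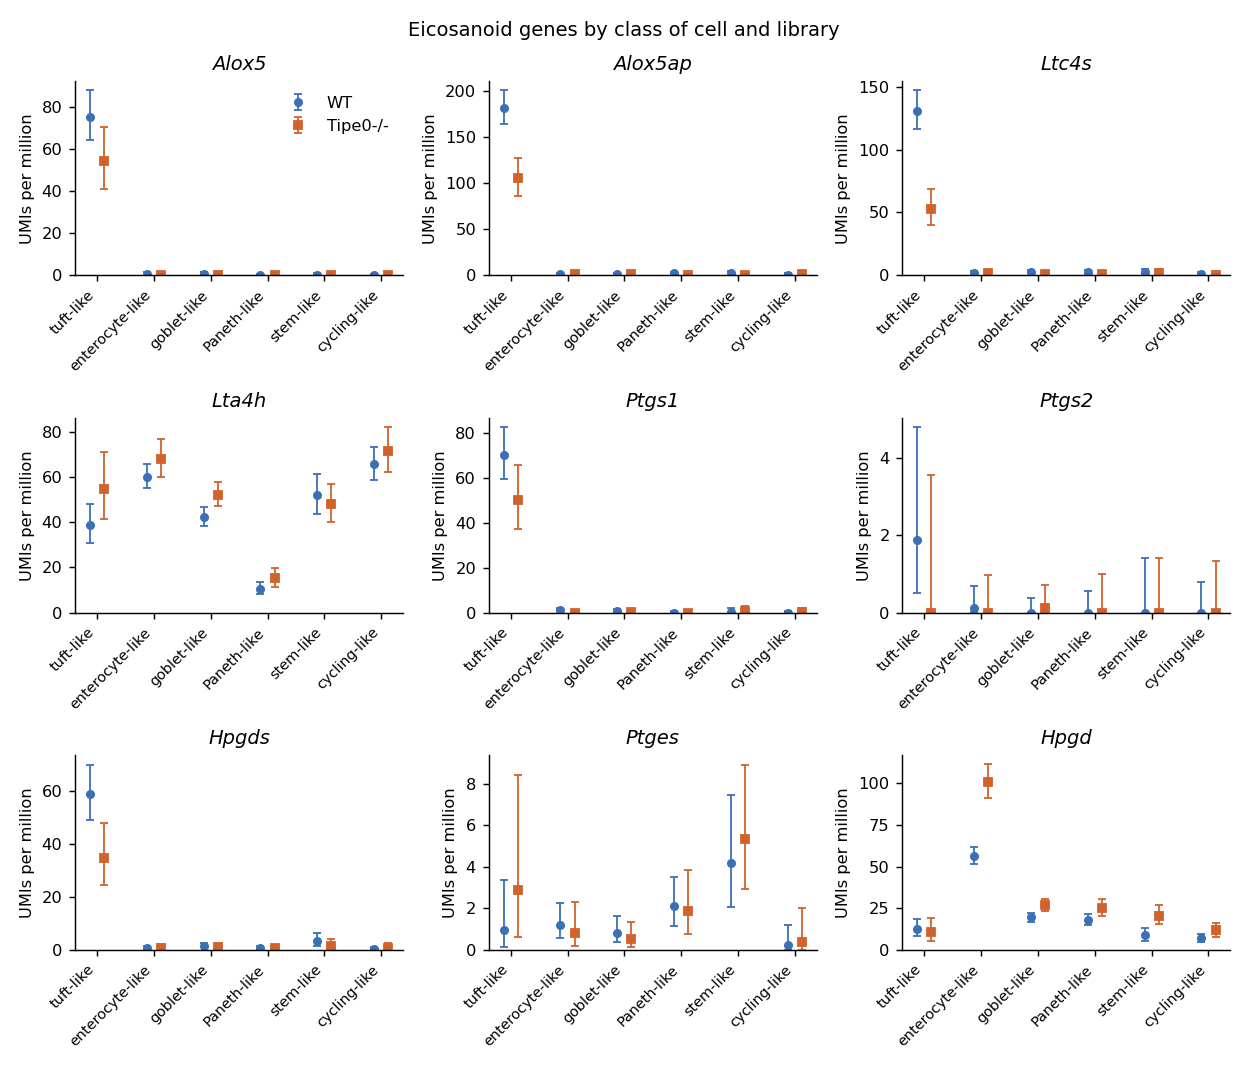
UMIs per 1000000 (vertical axes, each from 0) of the 9 genes in 6 classes of cells. Points are the library values, blue circles WT and orange squares *Tipe0*-/-, with 95% Poisson intervals. *Alox5*, *Alox5ap*, *Ltc4s*, *Ptgs1* and *Hpgds* stand above 30 CPM in tuft-like cells and close to 0 in the other 5 classes, *Lta4h* is in all 6, and *Hpgd* is highest in enterocyte-like cells at 56.5 and 101 CPM.

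Outside the tuft-like cluster the 5 tuft-concentrated genes were found in few cells, most of them with only 1 of the genes. After each cell was drawn down to 3000 UMIs, which left no cell out, 42.5% of WT tuft-like cells (34.7 to 50.6%) had an *Alox5ap* UMI against 0.617% of all other WT cells, and 26.0% of *Tipe0*-/- tuft-like cells (14.6 to 40.3%) against 0.307%. Counted with all UMIs, at least 1 of the 5 genes was found in 159 of 3242 other WT cells and in 61 of 1956 other *Tipe0*-/- cells. Only 1 was found in 136 and 50 cells, and at least 2 in 23 and 11 cells. Of the cells with at least 2, 21 and 9 had 3 or more tuft markers as well, and the median depths of the 23 and 11 cells were 17597 and 25645 UMIs. Among other cells with none of the 5 genes, 0.584% and 0.264% had 3 or more tuft markers, at median depths of 7309 and 7067 UMIs. In WT lymphocyte-like cells 5 *Hpgds* UMIs in 91 cells gave 10.5 CPM (3.42 to 24.6). This interval overlapped that of *Hpgds* in WT stem-like cells (1.56 to 6.49 CPM, on 9 UMIs). The *Tipe0*-/- lymphocyte-like cells had 0 *Hpgds* UMIs.

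The tuft-like cells carried several of these genes at once. With all UMIs counted, at least 1 of the 5 genes was found in 157 of 160 WT and 49 of 50 *Tipe0*-/- tuft-like cells, and all 5 in 32 and 8. *Alox5*, *Alox5ap* and *Ltc4s*, the full set for leukotriene C4, were found together in 41.3% of WT tuft-like cells (33.5 to 49.3%) and 36.0% of *Tipe0*-/- tuft-like cells (22.9 to 50.8%), but in 3 of 3242 other WT cells and 0 of 1956 other *Tipe0*-/- cells (0 to 0.188%). *Ptgs1* and *Hpgds*, the pair for prostaglandin D2, were found together in 29.4% (22.4 to 37.1%) and 34.0% (21.2 to 48.8%). At least 1 gene of each branch was in 68.1% of WT tuft-like cells (60.3 to 75.3%) and 78.0% of *Tipe0*-/- tuft-like cells (64.0 to 88.5%).

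These shares depend on depth, and the tuft-like cells of the libraries differed in it, with medians of 12011.5 UMIs in WT and 17249.5 in *Tipe0*-/-. At 3000 UMIs a cell, 2 or more of the 5 genes were found in 42.5% of WT tuft-like cells (34.7 to 50.6%) and 22% of *Tipe0*-/- tuft-like cells (11.5 to 36.0%), and 3 or more in 29.4% (22.4 to 37.1%) and 12.0% (4.53 to 24.3%). With all UMIs the shares with 3 or more were 70.0% and 68.0%. At 3000 UMIs, at least 1 gene of each branch was in 31.25% of WT (24.2 to 39.0%) and 18.0% of *Tipe0*-/- tuft-like cells (8.58 to 31.4%). This order was the reverse of that with all UMIs, and the intervals overlapped. *Ptgs1* and *Hpgds* together were in 9.38% and 8.00%, and *Alox5*, *Alox5ap* and *Ltc4s* together in 8.75% and 6.00%. Gene by gene at 3000 UMIs, *Ltc4s* was found in 38.1% of WT (30.6 to 46.1%) and 12.0% of *Tipe0*-/- tuft-like cells (4.53 to 24.3%). *Alox5* was found in 26.3% and 26.0%, *Ptgs1* in 25.6% and 24% and *Hpgds* in 21.9% and 20%, with intervals that overlapped widely.

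**Figure D2:**
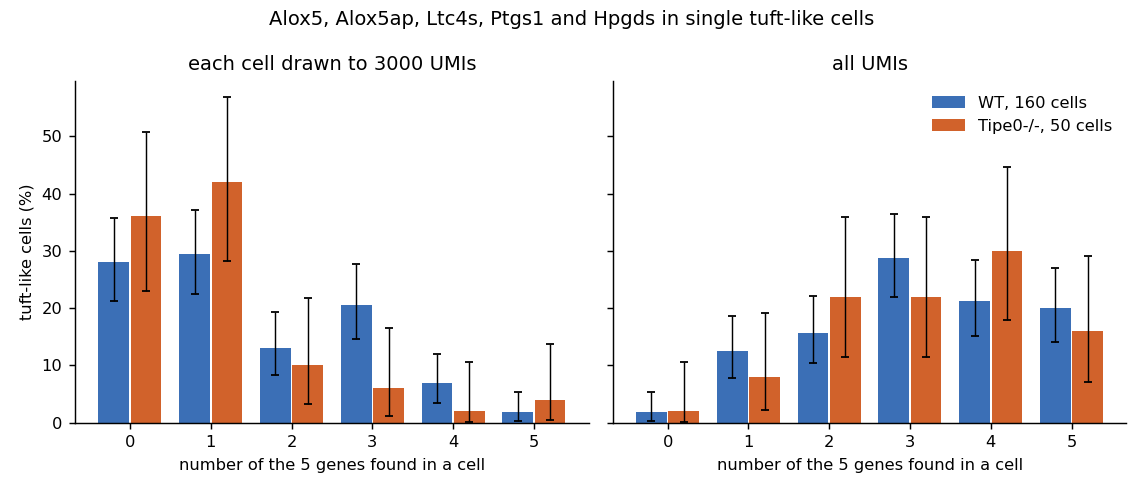
Share of tuft-like cells (vertical axis, percent) in which 0 to 5 of *Alox5*, *Alox5ap*, *Ltc4s*, *Ptgs1* and *Hpgds* were found (horizontal axis), after drawing each cell to 3000 UMIs (left) and with all UMIs (right). Bars are the 160 WT (blue) and 50 *Tipe0*-/- (orange) cells with Clopper-Pearson intervals, and at 3000 UMIs 12.0% of *Tipe0*-/- cells held 3 or more genes against 29.4% in WT.

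Between the whole libraries, the 5 tuft-concentrated genes were lower in *Tipe0*-/- cells. *Alox5* stood at 4.59 CPM in WT and 2.55 CPM in *Tipe0*-/-, which gives -0.84 (-1.29 to -0.42) as the log2 ratio of the *Tipe0*-/- level to the WT level. *Alox5ap* stood at 11.8 and 5.73 CPM (log2 ratio -1.04, -1.33 to -0.77), and *Ltc4s* at 9.49 and 3.56 CPM (-1.41, -1.77 to -1.07). *Ptgs1* stood at 4.51 and 2.39 CPM (-0.91, -1.38 to -0.48), and *Hpgds* at 4.43 and 2.34 CPM (-0.91, -1.38 to -0.48). So 5 of the 8 genes with at least 50 UMIs were at least 1.5-fold lower, where 5.06% of all such genes were, and 0 were at least 1.5-fold higher, where 8.62% were. The median log2 ratio over all 11665 genes was 0.15, and over the 8 genes it was -0.87.

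Of the other genes, *Ptgs2* had 5 and 1 UMIs, too few to compare. *Lta4h* stood at 45.4 CPM in WT and 52.3 CPM in *Tipe0*-/-, a log2 ratio of 0.20 (0.10 to 0.31) that differs little from the median over all genes. *Ptges*, with 1.21 and 1.38 CPM, had an interval on both sides of 0 (-0.50 to 0.87). *Hpgd* stood at 23.5 CPM in WT and 34.1 CPM in *Tipe0*-/- (0.54, 0.40 to 0.68), above that median and short of 1.5-fold.

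In whole libraries a lower level can come from fewer tuft-like cells or from a lower CPM within them. Tuft-like cells made up 4.70% (4.02 to 5.47%) of the WT library and 2.49% (1.86 to 3.27%) of the *Tipe0*-/- library, which is -2.21 percentage points (-3.21 to -1.17) for *Tipe0*-/- minus WT, and they held 5.62% and 4.34% of the UMIs. With the classes weighted to the same makeup in both libraries, the log2 ratios were -0.50 for *Alox5*, -0.72 for *Alox5ap*, -1.17 for *Ltc4s*, -0.59 for *Ptgs1* and -0.70 for *Hpgds*, so that *Alox5* was no longer past 1.5-fold, while *Hpgd* at 0.68 was.

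Within the tuft-like cells, 6 genes of the set had at least 50 UMIs, and 3 of them were at least 1.5-fold lower in *Tipe0*-/- cells, where 9.1% of 6608 genes were. These were *Ltc4s* with a log2 ratio of -1.29 (-1.75 to -0.88), *Alox5ap* with -0.78 (-1.11 to -0.48) and *Hpgds* with -0.75 (-1.34 to -0.22). *Ptgs1* at -0.48 (-0.98 to -0.03) and *Alox5* at -0.47 (-0.94 to -0.03) stayed within 1.5-fold. *Lta4h* went the other way, at 0.51 (-0.01 to 1.01), so that 0 of the 6 were at least 1.5-fold higher, where 6.87% of genes were. The median over all genes in these cells was 0.01. These ratios are of CPM and not of transcripts per cell. With all UMIs, *Alox5* was found in 56.3% of WT and 68.0% of *Tipe0*-/- tuft-like cells, *Ptgs1* in 48.8% and 60.0%, and *Hpgds* in 51.9% and 52.0%. *Alox5ap* was found in 83.8% and 80.0%, and *Ltc4s* in 74.4% and 58.0%.

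**Figure D3:**
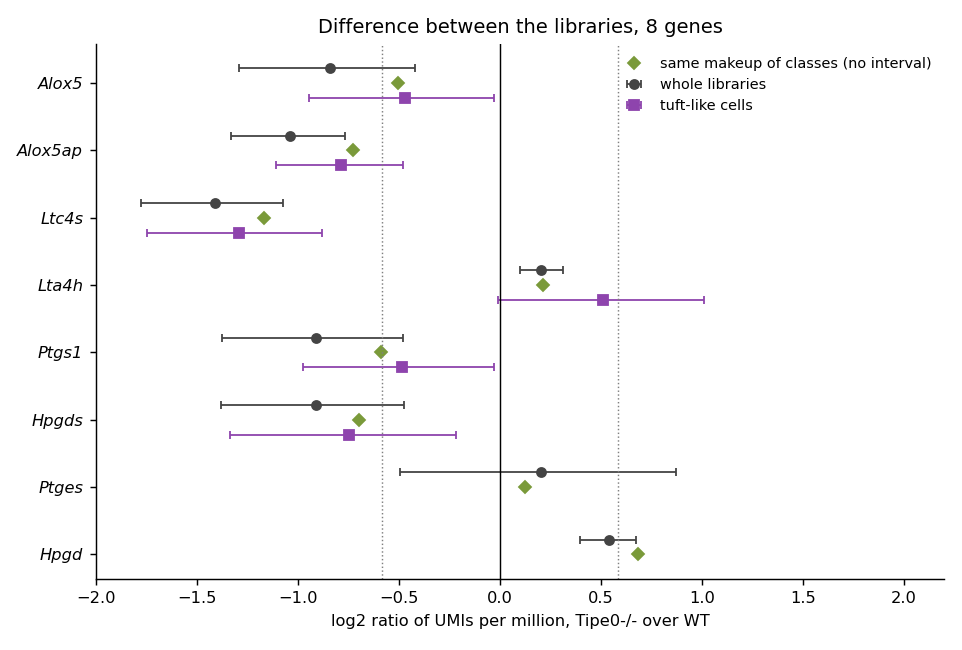
Log2 ratio of UMIs per 1000000, *Tipe0*-/- over WT (horizontal axis), for the 8 genes with at least 50 UMIs. Black circles are whole libraries and purple squares tuft-like cells (for the 6 genes with enough UMIs there), with exact binomial intervals, green diamonds are the libraries weighted to the same makeup, and dotted lines mark 1.5-fold. The 5 tuft-concentrated genes lie left of 0 in all 3, from -1.41 to -0.47, and *Lta4h* and *Hpgd* lie right of it.

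The tuft markers lay in the same direction. All 15 tuft markers with at least 50 UMIs were lower in the *Tipe0*-/- tuft-like cells, with a median log2 ratio of -0.55, and 6 of them were at least 1.5-fold lower. *Dclk1*, a kinase that marks tuft cells, stood at 612 and 450 CPM (-0.44, -0.60 to -0.29). *Trpm5*, the cation channel of taste transduction, stood at 181 and 115 CPM (-0.65, -0.97 to -0.36). *Pou2f3*, the transcription factor that tuft cells need, stood at 51.8 and 46.3 CPM (-0.15, -0.68 to 0.34). The 5 tuft-concentrated genes of the set had a median of -0.75.

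The levels of both groups of genes differed with the depth of the tuft-like cell, so these cells were divided at 8000 and 25000 UMIs, limits that were chosen after the values were seen. Of WT tuft-like cells, 30.6% had under 8000 UMIs, 60.0% had 8000 to 25000 and 9.38% had more. Of *Tipe0*-/- tuft-like cells, 18.0% had under 8000, 42% had 8000 to 25000 and 40.0% had more. The summed level of the 5 genes was 1488 CPM (1341 to 1647) in the shallow WT cells, 436 CPM (403 to 472) in those of middle depth and 237 CPM (194 to 286) in the deep ones. In *Tipe0*-/- cells the same sums were 1072 CPM (814 to 1386), 386 CPM (321 to 460) and 190 CPM (158 to 226). The 21 tuft markers summed to 10343, 2927 and 1329 CPM in WT and 10460, 2971 and 1322 CPM in *Tipe0*-/- cells.

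The cells of under 8000 UMIs were 49 in WT and 9 in *Tipe0*-/-, and the log2 ratio of the 5 genes together was -0.46 (-0.90 to -0.07) there. Goblet markers summed to 32268 CPM in these 9 cells against 1775 CPM in the 49, and Paneth markers to 610 against 3877 CPM. *Dclk1* was higher in the 9 cells (0.33, 0.02 to 0.63). In cells of 8000 to 25000 UMIs, 96 in WT and 21 in *Tipe0*-/-, the ratio of the 5 genes together was -0.17 (-0.47 to 0.10). At this depth 0 of the genes of the set with enough UMIs were at least 1.5-fold lower, where 13.7% of all genes were. For so few genes a count of 0 lies near that share. *Alox5* was higher there in *Tipe0*-/- cells, at 77.2 against 53.7 CPM (0.54, -0.19 to 1.19), and *Dclk1* stood at 540 CPM in WT and 578 CPM in *Tipe0*-/- (0.10, -0.14 to 0.33). Over 25000 UMIs, with 15 and 20 cells, the ratio of the 5 genes together was -0.32 (-0.70 to 0.06). *Alox5ap* was at -1.06 (-2.06 to -0.29) in shallow cells, -0.17 (-0.69 to 0.28) in middle ones and -0.05 (-0.68 to 0.61) in deep ones. In deep cells *Alox5* was lower in *Tipe0*-/-, at -0.90 (-1.83 to -0.01), and in shallow ones it was at -0.13 (-1.27 to 0.76). *Ltc4s* was at -0.72 (-1.78 to 0.10), -0.50 (-1.21 to 0.10) and -1.27 (-2.18 to -0.42), lower in *Tipe0*-/- cells at each depth, with 12, 24 and 19 UMIs behind the *Tipe0*-/- values. *Ptgs1* and *Hpgds* were above 0 in shallow and deep cells and below 0 in middle ones, with every interval on both sides of 0. The part that depth has in the difference within all tuft-like cells was not tested further.

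**Figure D4:**
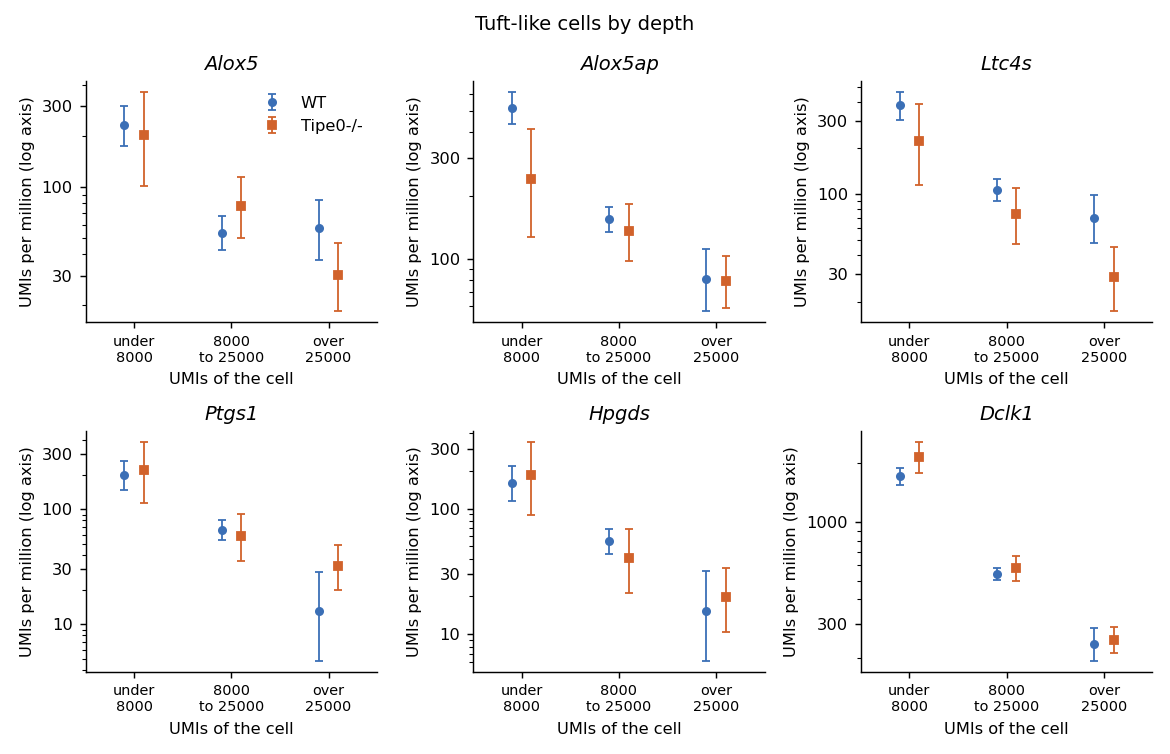
UMIs per 1000000 (vertical axes, log scale) of the 5 tuft-concentrated genes and of *Dclk1* in tuft-like cells of under 8000, 8000 to 25000 and over 25000 UMIs (horizontal axes). Blue circles are WT and orange squares *Tipe0*-/- cells, with 95% Poisson intervals. In WT, *Alox5ap* goes from 519 through 155 to 81.2 CPM from shallow to deep cells, and *Dclk1* from 1707 through 540 to 237 CPM.

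Transcripts of immune cells were more frequent in the WT tuft-like cells. Of 15 lymphocyte markers, 14 were found there, at a summed 233 CPM, against 6 and 15.4 CPM in the *Tipe0*-/- tuft-like cells, where *Cd3e*, *Cd3g*, *Cd3d*, *Cd8a*, *Gzma* and *Gzmb* were at 0. Of 8 macrophage and dendritic cell markers, 3 were found in WT and 1 in *Tipe0*-/- (14.5 and 1.93 CPM), and *Csf1r*, *C1qa*, *C1qb*, *C1qc* and *Adgre1* were at 0 in both. In the whole libraries the lymphocyte markers also differed, at 236 CPM in WT and 64.8 CPM in *Tipe0*-/-, with 91 and 16 lymphocyte-like cells. The macrophage and dendritic cell markers stood at 4.96 and 5.94 CPM there. Of 9 mast cell markers 2 were found in the tuft-like cells of each library, *Kit* and *Mcpt2*. *Kit* had 210 of the 213 mast marker UMIs in WT tuft-like cells and 64 of 65 in *Tipe0*-/- tuft-like cells. *Cpa3*, *Fcer1a*, *Ms4a2*, *Mcpt1*, *Cma1*, *Tpsb2* and *Gata2* were at 0 in the tuft-like cells of both. In the whole libraries the mast cell markers had 1376 and 808 UMIs. Without 7 WT tuft-like cells counted as holding a T cell marker UMI, 3 genes of the set were again at least 1.5-fold lower. *Gzma* was found in 12 and *Ccl5* in 39 of the 160 WT tuft-like cells, so cells with lymphocyte transcripts stayed in. The 13 goblet markers summed to 5810 CPM in WT and 8981 CPM in *Tipe0*-/- tuft-like cells, and the 17 enterocyte markers to 5732 and 2199 CPM. The part of these transcripts in the difference between the libraries was not tested.

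In all cells outside the tuft-like cluster, *Ltc4s* was lower in *Tipe0*-/-, with 82 UMIs in WT and 30 in *Tipe0*-/- (log2 ratio -0.78, -1.45 to -0.18). *Alox5ap* (-0.48, -1.19 to 0.17), *Hpgds* (-0.43, -1.29 to 0.35) and *Ptges* (0.11, -0.62 to 0.80) had intervals on both sides of 0 there. *Lta4h* stood at 0.19 (0.08 to 0.30), and *Hpgd* was higher (0.54, 0.40 to 0.68). In enterocyte-like cells the level of *Hpgd* was 56.5 CPM in WT and 101 CPM in *Tipe0*-/-, a log2 ratio of 0.84 (0.64 to 1.04), where the median over genes was 0.15. It was 1 of 2 genes of the set with enough UMIs there, the other being *Lta4h*, so that 1 of 2 was at least 1.5-fold higher (11.9% of 8484 genes were) and 0 lower (3.54%). The clusters of this class differed in size between the libraries. Cluster 5 (led by *U90926*, *Sprr2b* and *Saa1*) held 394 WT and 67 *Tipe0*-/- cells, and cluster 10 (led by *Apoa4*, *Mme* and *Ada*) 52 and 159. Cluster 4 (led by *Cldn8* and *Slc40a1*) held 318 and 167, and cluster 8 (led by *Arg2*, *Clec2e* and *Ms4a18*) 173 and 72. Clusters 4 and 5 had no enterocyte marker among their 10 leading genes. In all 4 clusters the *Tipe0*-/- level of *Hpgd* was the higher, at 27.8 and 52.8 CPM in cluster 4 (0.93, 0.46 to 1.40), 79.9 and 126 CPM in cluster 5 (0.67, 0.28 to 1.03), 55.8 and 135 CPM in cluster 8 (1.27, 0.83 to 1.71) and 72.7 and 132 CPM in cluster 10 (0.83, 0.16 to 1.64). After thinning, an *Hpgd* UMI was found in 16.1% of WT and 27.5% of *Tipe0*-/- enterocyte-like cells.

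In the stem-like, goblet-like, cycling-like and Paneth-like cells the *Hpgd* ratio was above 0 as well. Stem-like cells stood at 1.22 (0.50 to 2.0) on 23 and 54 UMIs. Goblet-like cells stood at 0.46 (0.16 to 0.75), cycling-like at 0.77 (0.01 to 1.52) and Paneth-like at 0.47 (0.06 to 0.87). The genes of the set with enough UMIs in the stem-like, goblet-like and Paneth-like cells were *Hpgd* and *Lta4h*. In stem-like cells 1 of the 2 was at least 1.5-fold higher and 0 lower, where 5.35% and 3.94% of genes were. In goblet-like cells 0 were higher and 0 lower, where 6.2% and 3.44% were, and in Paneth-like cells 0 were higher and 0 lower, where 36.7% and 1.37% were. In cycling-like cells *Hpgd* was past 1.5-fold, but the share of all genes past it was not computed there. The median log2 ratio over all genes was 0.04 in stem-like, 0.10 in goblet-like and 0.07 in cycling-like cells. In Paneth-like cells the median over all genes was itself 0.48, so that *Hpgd* did not stand out there. Tuft-like cells were at -0.21 (-1.41 to 0.81) on 27 and 11 UMIs, and the difference between them and the enterocyte-like cells was not tested.

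*Lta4h* differed less than *Hpgd* in the enterocyte-like clusters 4, 5 and 8. It stood at 61.4 and 62.3 CPM in cluster 4, 59.0 and 80.0 CPM in cluster 5 and 67.8 and 74.4 CPM in cluster 8, each with an interval of the ratio on both sides of 0. In cluster 10 it had 5 UMIs in WT, at 19.1 CPM (6.21 to 44.6), and 69 in *Tipe0*-/-, at 65.5 CPM (51.0 to 82.9). There its log2 ratio was 1.65 (0.49 to 3.44), above that of *Hpgd* in this cluster. Over the whole class the log2 ratio was 0.18, near the median over genes.

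**Figure D5:**
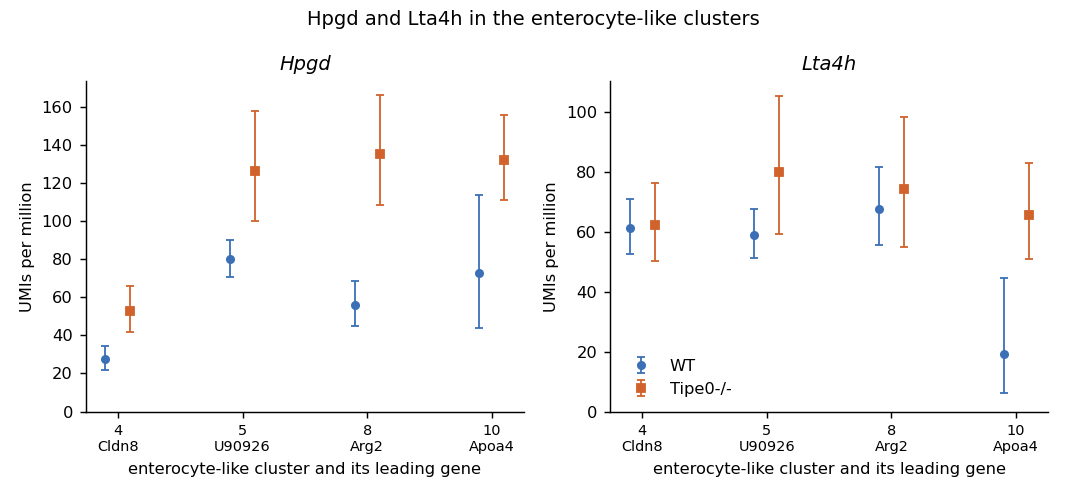
UMIs per 1000000 (vertical axes, from 0) of *Hpgd* and *Lta4h* in the 4 enterocyte-like clusters (horizontal axes, cluster number and leading gene), blue circles WT and orange squares *Tipe0*-/-, with 95% Poisson intervals. *Hpgd* is higher in *Tipe0*-/- cells in each cluster, from 27.8 against 52.8 CPM in cluster 4 to 55.8 against 135 CPM in cluster 8, while *Lta4h* separates in cluster 10 only.

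Genes with a like pattern were found by Pearson's r of log2(CPM + 1) over 18 points, the 9 classes and unnamed clusters of both libraries, which share their libraries and depth. For the 5 tuft-concentrated genes these points are a high pair of values and 16 low ones, so r is a description. *Alox5* was most like *Strip2* (0.985), *Siglecf* (0.984) and *Bmx* (0.982), and among the genes most like *Alox5ap* were *Plcb2* (0.964) and *Pea15a* (0.940). *Ltc4s* was most like *Gng13* (0.974), *Trpm5* (0.974) and *Ly6g6d* (0.972), *Ptgs1* most like *Pygl* (0.985), *Ffar3* (0.972) and *Matk* (0.966), and *Hpgds* most like *Pik3r5* (0.953), *Ptgs1* (0.946) and *Nrgn* (0.941). Of these *Bmx*, *Plcb2*, *Gng13*, *Trpm5* and *Matk* are on the list of tuft markers. *Lta4h* was most like *Fdx1* (0.972), *Atp5g3* (0.968) and *Efr3a* (0.965), and *Hpgd* most like *Chka* (0.901), *H2-Q2* (0.897) and *Eps8l2* (0.896). The nearest genes of the sparse *Ptges* (*Tubb2a* 0.793, *Angpt2* 0.782, *Egfl8* 0.778) and *Ptgs2* (*Fabp1* 0.758, *Ly6g6f* 0.754, *Sh2d7* 0.738) rest on 79 and 6 UMIs.

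Tuft-like concentration was then looked at over the wider pathway. Of 61 further genes of eicosanoid metabolism 60 were in the matrix and 32 had at least 50 UMIs. Of these 32, 0 were at least 5-fold higher in tuft-like cells in both libraries, near the 0.874% of all 11665 genes. Highest by this measure were *Mgll*, the lipase of monoacylglycerols, at 6.28-fold in WT and 4.72-fold in *Tipe0*-/-, and *Pla2g4a*, the cytosolic phospholipase that frees arachidonic acid, with 69.1 CPM in WT tuft-like and 17.6 CPM in other cells, and 62.7 and 20.2 CPM in *Tipe0*-/-. Between whole libraries 3 of the 32 were at least 1.5-fold higher in *Tipe0*-/- and 3 at least 1.5-fold lower, near the 8.62% and 5.06% of all genes, and their median log2 ratio was -0.03.

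Among the genes that free arachidonic acid, 1 of 10 was higher and 1 lower, against 8.62% and 5.06% of all genes. *Pla2g5*, a secreted phospholipase, stood at 10.2 CPM in WT and 16.2 CPM in *Tipe0*-/- (0.67, 0.46 to 0.87). *Pla2g4c*, which had the most UMIs of this group, stood at 192 and 13.7 CPM (-3.81, -3.98 to -3.65) and was highest in enterocyte-like cells. In tuft-like cells it had 518 UMIs in WT and 28 in *Tipe0*-/-, or 242 and 27.0 CPM.

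The 5 measured genes of the rest of the leukotriene branch and the 5 of the other prostanoid synthases all lay within 1.5-fold. Of all genes, 8.62% were at least 1.5-fold higher and 5.06% lower, and for so few genes counts of 0 lie near those shares. *Mgst3*, a membrane glutathione transferase and the gene with the most UMIs of the former, stood at 331 and 320 CPM, and *Ptges3*, the cytosolic synthase of prostaglandin E2, at 157 and 213 CPM (0.44, 0.38 to 0.49). Of 9 measured genes of breakdown and transport, *Cyp2c65*, an epoxygenase, was higher at 7.45 and 13.3 CPM (0.84, 0.60 to 1.07), as was *Ephx1*, an epoxide hydrolase, at 0.866 and 1.51 CPM on 33 and 36 UMIs. *Slco2a1*, the transporter that takes up prostaglandins, was lower at 18.2 and 10.8 CPM (-0.76, -0.97 to -0.55), and *Cyp2j6*, with the most UMIs, stood at 21.6 and 21.4 CPM. So 2 of the 9 were at least 1.5-fold higher and 1 lower, against the same shares of all genes.

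Receptors were sparse. Of 14 listed, 3 had at least 50 UMIs, among them *Ptger4*, the EP4 receptor of prostaglandin E2, with 615 and 423 UMIs (16.1 and 17.7 CPM). *Ltb4r1*, a receptor of leukotriene B4, was past 1.5-fold lower with 42 and 15 UMIs, an interval that held 0 (-1.77 to 0.07). So 1 of the 3 was lower and 0 were higher, where 5.06% and 8.62% of all genes were. *Cysltr1* and *Oxgr1*, receptors of cysteinyl leukotrienes, had 0 UMIs in both libraries, with intervals up to 0.0968 CPM in WT and 0.154 CPM in *Tipe0*-/-. *Cysltr2* had 1 UMI in each. None of the 6 other lipoxygenases reached 50 UMIs.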

How the data were processed

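Ileal epithelial cells of 3 pooled mice per genotype were captured on the 10X Genomics system with chemistry that reads the 3′ end, so that counts are not scaled to gene length. Digestion was with DNase I and Dispase per the study's methods, and with collagenase and dispase per the labels. The values are raw UMI counts per gene and cell, deposited by the authors after Cell Ranger mapping (mm10) and not normalized between libraries. Every cell given was kept.

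Both libraries were clustered together in Seurat 5.3.0 (R 4.3.3; 521 variable genes, leaving out the eicosanoid genes and those the study used to compare genotypes, 14 principal components, resolution 0.8). Classes were given by the marker list with the top mean z-score, provided that 3 or more of its markers were each found in 10% or more of the cells there, at 1.5 times the share elsewhere or above. Scrublet (Scanpy 1.11.5) called 15 WT and 3 *Tipe0*-/- doublets. At under 0.5% of cells this caller cannot be taken to have worked, and an alternative left out the top 5% of scores instead.

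UMIs were summed per class and library (Python 3.11.15, scipy 1.17.1). Log2 ratios had 0.5 added to each sum. Only genes with at least 50 UMIs in the cells compared were counted. Cells were thinned to 3000 UMIs without replacement (numpy 2.4.6). Only the log2 ratio and its interval were tested on simulated data, with Poisson counts of whole libraries, and the other steps were not. The genes, lists and marker lists were chosen with earlier results of these data known. The wider pathway genes named by rule are those past 1.5-fold and the gene with the most UMIs of each role, and other genes were named after their values were seen. The 3 genes most like each gene of the set were taken among genes with at least 100 UMIs. Some items are not reported here.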

Additional observations from a re-analysis of the deposited data

How the results depend on the processing

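The count of 5 genes at least 5-fold higher in tuft-like cells was the same under each of the 9 alternatives run for it. The count of genes at least 1.5-fold lower in whole libraries went from 4 to 6. It was 6 with no minimum of UMIs, where *Ptgs2*, on 5 and 1 UMIs, was added. There 15.2% of all genes were that much lower, against 5.06% in the main setting. The count of genes at least 1.5-fold higher in whole libraries became 1 (*Hpgd*) with every cell weighted equally, without the 5% of cells with the highest Scrublet scores and with the same makeup of classes. In tuft-like cells that count became 1 (*Lta4h*) with every cell weighted equally and with tuft-like cells chosen cell by cell from 4 or more tuft markers after thinning, and 1 (*Ptges*, on 2 and 3 UMIs) with no minimum of UMIs. The share of all genes that much higher is not given under these alternatives. The count at least 1.5-fold lower in tuft-like cells became 0 in cells of 8000 to 25000 UMIs, an alternative chosen after seeing the data. There 13.7% of all genes were that much lower, *Alox5* stood at 0.54, *Alox5ap* at -0.17 and *Ltc4s* at -0.50. The same count was 2 with 2000 variable genes by vst, where *Hpgds* stood at -0.52 and 9.43% of all genes were that much lower. It was 4 with tuft-like cells chosen cell by cell and with no minimum of UMIs, where 10.6% and 15.0% of all genes were. With every cell weighted equally *Alox5ap* in whole libraries stood at -1.67. The *Hpgds* ratio in enterocyte-like cells, on 4 and 3 UMIs, went to -0.13 without the cells of highest Scrublet scores. Scaling to the median ratio moved *Lta4h* in whole libraries to 0.05 and *Hpgd* to 0.38. *Hpgd* in enterocyte-like cells ranged from 0.69 to 0.86, and *Ltc4s* in tuft-like cells from -1.32 to -0.50. The cause of these moves was not tested. No paired analysis was possible because each genotype has 1 library. The depth limits *Ptgs2* and *Ptges* to a few UMIs a class, and the 50 *Tipe0*-/- tuft-like cells limit the values within depths. The difference in the tuft-like share ranged from -2.26 to -1.56 percentage points over 9 alternatives.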

Other observations

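Enteroendocrine-like cells, the hormone cells of the epithelium, formed a cluster only with 2000 variable genes by the vst method, with 39 WT and 26 *Tipe0*-/- cells. There *Alox5ap* had 4 UMIs in WT and 6 in *Tipe0*-/-, at 8.52 CPM (2.32 to 21.8) and 13.6 CPM (5.01 to 29.7), and *Ltc4s* had 6 and 4, at 12.8 CPM (4.69 to 27.8) and 9.10 CPM (2.48 to 23.3). The *Alox5ap* UMIs were in 3 WT and 2 *Tipe0*-/- cells, with 4 of the 6 in 1 cell. The *Ltc4s* UMIs were in 4 WT cells and in 1 *Tipe0*-/- cell. The levels therefore rest on few cells. *Alox5* had 0 UMIs in these cells in both libraries and *Ptgs1* 0 and 1, while *Hpgds* had 4 and 1 and *Ptges* 3 and 2. *Lta4h* stood at 46.9 CPM (29.4 to 71.0) and 54.6 CPM (35.0 to 81.2). In the tuft-like cluster of the same setting, with 137 WT and 43 *Tipe0*-/- cells, *Ltc4s* stood at 147 CPM (130 to 166) and 58.9 CPM (43.4 to 78.1).

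Single markers of immune cells differed in the number of WT tuft-like cells that held them. *Gzma*, a protease of cytotoxic lymphocytes, had 131 UMIs in 12 cells, *Ccl5*, a chemokine, 243 UMIs in 39 cells, and *Lyz2*, a lysozyme of macrophages, 25 UMIs in 2 cells. In the *Tipe0*-/- tuft-like cells *Ccl5* had 10 UMIs in 3 cells, and *Gzma* and *Lyz2* had 0. *Kit*, a receptor listed here as a mast cell marker, was found in 110 of 160 WT and 34 of 50 *Tipe0*-/- tuft-like cells.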
